A study of Mus musculus with 272 samples.

Results

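The importin alpha genes and Kpnb1 were followed through mouse oocyte maturation and preimplantation development. All 7 genes, Kpna1, Kpna2, Kpna3, Kpna4, Kpna6, Kpna7 and Kpnb1, were taken by symbol from the 15771 gene symbols of the expression table, and each of the 7 was present. Importin alpha proteins are adaptors that bind proteins carrying a classical nuclear localization signal. Importin beta 1, the product of Kpnb1, carries the adaptor and its cargo through the nuclear pore, and the small GTPase Ran releases the cargo inside the nucleus. In the mouse, Kpna7 is known as a maternal importin alpha whose transcript is stored in the oocyte.

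The study sampled 8 stages: the GV oocyte (an immature oocyte with an intact nucleus, the germinal vesicle), the MII oocyte (arrested in the second meiotic division), the zygote, the 2-, 4- and 8-cell embryo, the morula and the blastocyst. Each stage had 4 transcriptome libraries, each made from a pool of 20 oocytes or embryos. Each stage also had 3 sucrose gradients, lettered A to C, loaded with a lysate of about 100 oocytes or embryos and collected as 10 fractions, each sequenced as a library of its own. Cycloheximide, which holds ribosomes on their transcripts, was in the lysis buffer and the gradients of every stage. No strain, genotype or age is stated, and no group carried a treatment beyond its stage. Fractions 1 to 5 are called light and fractions 6 to 10 heavy. The labels number the fractions only, and transcripts that carry more ribosomes are taken by convention to lie in the later fractions.

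Depth was 11.2 to 24.3 M reads (M, 1000000) in the transcriptomes and 0.0102 to 43.2 M reads in the fractions. Summed levels of 5 oocyte, 4 2-cell and 6 blastocyst markers were highest in GV oocytes, 2-cell embryos and blastocysts respectively. Within the oocyte list, mean Zp1, Zp2 and Zp3 were lower in MII than in GV oocytes. Gdf9 and Bmp15 were higher there, at 7713 and 3151 CPM against 5666 and 2543 CPM. Of the blastocyst list, Gata3 was already at 107 CPM in zygotes, beside 156 CPM in blastocysts. Of 8 cumulus and granulosa markers, 3 were measured (Cyp19a1, Inha and Fshr). Their sum was 39.4 to 68.9 CPM (a gene's reads per 1000000 reads of the library) from GV oocyte to zygote, 5.60 to 12.9 in 2-cell embryos and at most 0.227 from the 4-cell stage on. Nearly all of it was Cyp19a1, at 62.7 CPM in MII oocytes, while Inha was at 0.406 CPM there and at 0 in zygotes. The sum was higher in MII than in GV oocytes and lower in 2-cell embryos than in zygotes, with no overlap at either step. Its part in the importin levels was not tested. Fraction libraries of the 2-, 4- and 8-cell stages stood apart from the others. They detected on average 5249, 4635 and 5948 genes at 1 CPM, against 7834 to 9775 at the other stages. Where a gene had at least 100 CPM in the same fraction of both other gradients, it had 0 reads in the remaining one in 4.63% of cases at the 2-cell, 4.36% at the 4-cell and 1.17% at the 8-cell stage, and in at most 0.0713% of cases elsewhere. The part of these gaps in the gradient results of the 2-, 4- and 8-cell stages was not tested.

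Kpna7, the maternal importin alpha, was abundant up to the 2-cell stage and almost gone from the 4-cell stage on. Its 4 transcriptome values were 846, 995, 855 and 980.2 CPM in GV oocytes. They were 715, 684, 696 and 681 CPM in MII oocytes, and 402, 525, 419 and 439 CPM in zygotes. The 2-cell libraries held 507, 371, 373 and 356 CPM. The GV, MII and zygote ranges did not overlap and lay in falling order, and the 2-cell range overlapped that of zygotes.

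At the 4-cell stage the values of Kpna7 were 2.22, 1.58, 0.75 and 0.354 CPM, each resting on 7 to 43 reads. The mean was 328-fold lower than at the 2-cell stage, from 402 to 1.22 CPM. The log2 change was -7.56 ± 0.28 (SE; limma adjusted p = 3.2e-23), where changes are on the log2(CPM + 1) scale and understate those of low genes. From the 8-cell stage to the blastocyst no library exceeded 4.53 CPM. The 3 earlier changes of Kpna7, from GV to MII, MII to zygote and zygote to 2-cell, were -0.40 ± 0.28, -0.64 ± 0.28 and -0.16 ± 0.28 and were not called. A call needed an adjusted p under 0.05 and a change of at least 1 on the log2 scale. In pools of whole embryos, fewer cells of a type and less RNA per cell cannot be told apart. The libraries were made from polyadenylated RNA, so a lower transcript level and a shorter poly(A) tail cannot be told apart either.

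The bases in front of the annotated start of 4 of the 7 genes were given in RefSeq (build GRCm38.p6), and 3 are printed because Kpna7 and the pair Kpna4 and Kpnb1 had opposite stage profiles. Each line holds the 250 bases before the start, 5′ to 3′ on the gene's strand. The deposited values were made on GRCm39, so these positions belong to the reference table and not to the deposited data. Capitals mark matches on either strand to the E-box CANNTG, the CCAAT box, the GC box GGGCGG and the TATA box TATAAA. No printed match overlapped another.

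Kpna7 (chr5:145009637-145009886, minus strand): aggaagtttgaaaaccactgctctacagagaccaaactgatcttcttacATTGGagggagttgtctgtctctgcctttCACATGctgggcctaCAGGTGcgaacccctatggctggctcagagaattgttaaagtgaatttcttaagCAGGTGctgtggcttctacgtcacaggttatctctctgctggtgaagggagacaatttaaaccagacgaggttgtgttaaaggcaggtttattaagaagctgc

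Kpna4 (chr3:69127093-69127342, minus strand): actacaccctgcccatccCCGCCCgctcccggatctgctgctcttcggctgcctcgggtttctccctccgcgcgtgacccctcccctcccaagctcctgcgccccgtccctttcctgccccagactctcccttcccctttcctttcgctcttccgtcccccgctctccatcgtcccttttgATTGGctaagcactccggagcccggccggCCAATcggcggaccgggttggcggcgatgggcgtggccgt

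Kpnb1 (chr11:97187893-97188142, minus strand): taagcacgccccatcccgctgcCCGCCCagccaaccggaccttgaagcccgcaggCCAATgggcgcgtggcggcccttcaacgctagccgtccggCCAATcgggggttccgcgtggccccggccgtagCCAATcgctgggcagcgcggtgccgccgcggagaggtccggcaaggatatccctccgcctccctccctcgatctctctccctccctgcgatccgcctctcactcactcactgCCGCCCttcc

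The Kpna7 stretch was 46.0% G and C with 3 CpG dinucleotides and held 3 E-box matches and 1 CCAAT match. The stretches of Kpna4 and Kpnb1 were 68.4% and 70.8% G and C with 24 and 28 CpG dinucleotides. They held no E-box match, 2 and 3 CCAAT matches, and 1 and 2 GC box matches. Kpna2, not printed, lay between in composition, at 57.6% G and C with 16 CpG dinucleotides. Like Kpna4 and Kpnb1 it held no E-box match, and it had 1 CCAAT match and 1 GC box match. The matches thus did not divide the genes by their level in oocytes. Among 32851 RefSeq promoters of the same length, the median was 52.4% G and C with 6 CpG dinucleotides, 37.8% had at most 3 CpG, and 7.61% had at least 28. An E-box match was present in 66.2% of them, a CCAAT match in 33.9%, a GC box match in 32.7% and a TATA match in 12.4%. These matches describe letters, not binding.

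Kpna2, an importin alpha of dividing cells and the closest relative of Kpna7 in the family, had the highest CPM of all members in GV oocytes. Its GV values were 1736, 1651, 1588 and 1663 CPM, and those of MII oocytes were 435, 482, 468 and 449 CPM. The ranges did not overlap, and the change was -1.85 ± 0.22 (limma adjusted p = 3.5e-09). Zygotes held 462, 582, 538 and 419.9 CPM, and 2-cell embryos 848, 713, 740.1 and 629.6 CPM. Kpna2 was at 1349, 904, 1208 and 1271.5 CPM in 4-cell embryos, above every 2-cell library, but the change of 0.68 ± 0.22 (limma adjusted p = 0.0047) was below the size for a call.

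The 8-cell and morula libraries of Kpna2 overlapped each other, at 661 to 1114.5 and 346 to 1008 CPM. Blastocysts held 269.6, 226, 124 and 162 CPM, below every morula library, and the change from the morula was -1.86 ± 0.22 (limma adjusted p = 8.4e-09). Kpna2 thus had its highest level in GV oocytes and its lowest in blastocysts, with no overlap between either and its neighbour in the order. GENCODE M21 annotates a processed pseudogene of Kpna2 (Kpna2-ps), and how reads shared with it or with Kpna7 were assigned is not given in the sources used here, so the level of Kpna2 is uncertain to that extent.

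Kpna3, an importin alpha of another subfamily together with Kpna4, was higher in MII oocytes and zygotes than in GV oocytes and fell at the 4-cell stage. Its values were 412, 388, 389.8 and 399.99 CPM in GV oocytes and 758, 868, 719 and 839 CPM in MII oocytes. Zygotes held 999.1, 1103, 1147 and 1131.5 CPM, and 2-cell embryos 867, 1070.5, 1109.5 and 967 CPM. The change from GV to MII was 1.00 ± 0.13 (limma adjusted p = 4.4e-08), which fell just under the size for a call, while edgeR on recovered reads gave 1.32 and called it. It was also called without GV library A, MII library A or MII library C, at 1.01 to 1.04. From MII to zygote it was 0.46 ± 0.13 (limma adjusted p = 0.007), in non-overlapping ranges. 4-cell embryos held 84.8, 82.1, 102 and 103 CPM, and every later library lay between 58.5 and 123 CPM. The change from 2-cell to 4-cell was -3.42 ± 0.13 (limma adjusted p = 8e-23).

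Kpna1 and Kpna4 were near 0 in oocytes and zygotes and appeared at the 2-cell stage. Kpna1, an importin alpha of the same subfamily as Kpna6, had 0 to 5 reads in each of the 4 zygote libraries. Its 2-cell values were 52.4, 56.3, 96.6 and 69.6 CPM, and 4-cell embryos held 391, 389, 361 and 335 CPM. The changes were 5.93 ± 0.21 (limma adjusted p = 2.5e-23) from zygote to 2-cell and 2.45 ± 0.21 (limma adjusted p = 3.8e-13) from 2-cell to 4-cell. Kpna1 was highest in 4-cell embryos and its mean was lower at each later stage, from 258 CPM in 8-cell embryos to 176 in morulae and 115 in blastocysts. The ranges of neighbours in this order did not overlap, but none of the 3 steps reached the size for a call.

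Kpna4 was at 12.8, 10.8, 22.8 and 17.5 CPM in 2-cell embryos, after at most 1.84 CPM in any oocyte or zygote library. In 4-cell embryos it was at 128, 125, 109 and 103 CPM. The changes were 3.53 ± 0.25 (limma adjusted p = 1.2e-14) and 2.84 ± 0.25 (limma adjusted p = 9.8e-13). Its ranges then overlapped from the 4-cell stage to the blastocyst, between 64.8 and 158.6 CPM.

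Kpna6 was low in the transcriptomes until the blastocyst. Its lowest and highest transcriptome values before that stage were 5.07 and 25.4 CPM. Morulae held 25.4, 15.7, 16.97 and 17.1 CPM and blastocysts 49.3, 40.0, 46.5 and 57.3 CPM, with no overlap. The change was 1.33 ± 0.20 (limma adjusted p = 9.2e-07).

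Kpnb1, the import receptor that all these adaptors share, was far below Kpna2, Kpna3 and Kpna7 in CPM until the 2-cell stage and above Kpna4 and Kpna6. Its values were 45.6, 38.8, 33.3 and 30.9 CPM in GV oocytes and 55.4, 31.96, 41.4 and 57.4 CPM in 2-cell embryos. GV, MII, zygote and 2-cell ranges overlapped along their order. 4-cell embryos held 301, 244, 302 and 229.9 CPM, above every 2-cell library, and the change was 2.53 ± 0.19 (limma adjusted p = 1.9e-14). Blastocysts, at 372, 349.8, 311 and 421 CPM, had the highest mean, and their range overlapped that of morulae.

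**Figure D1:**
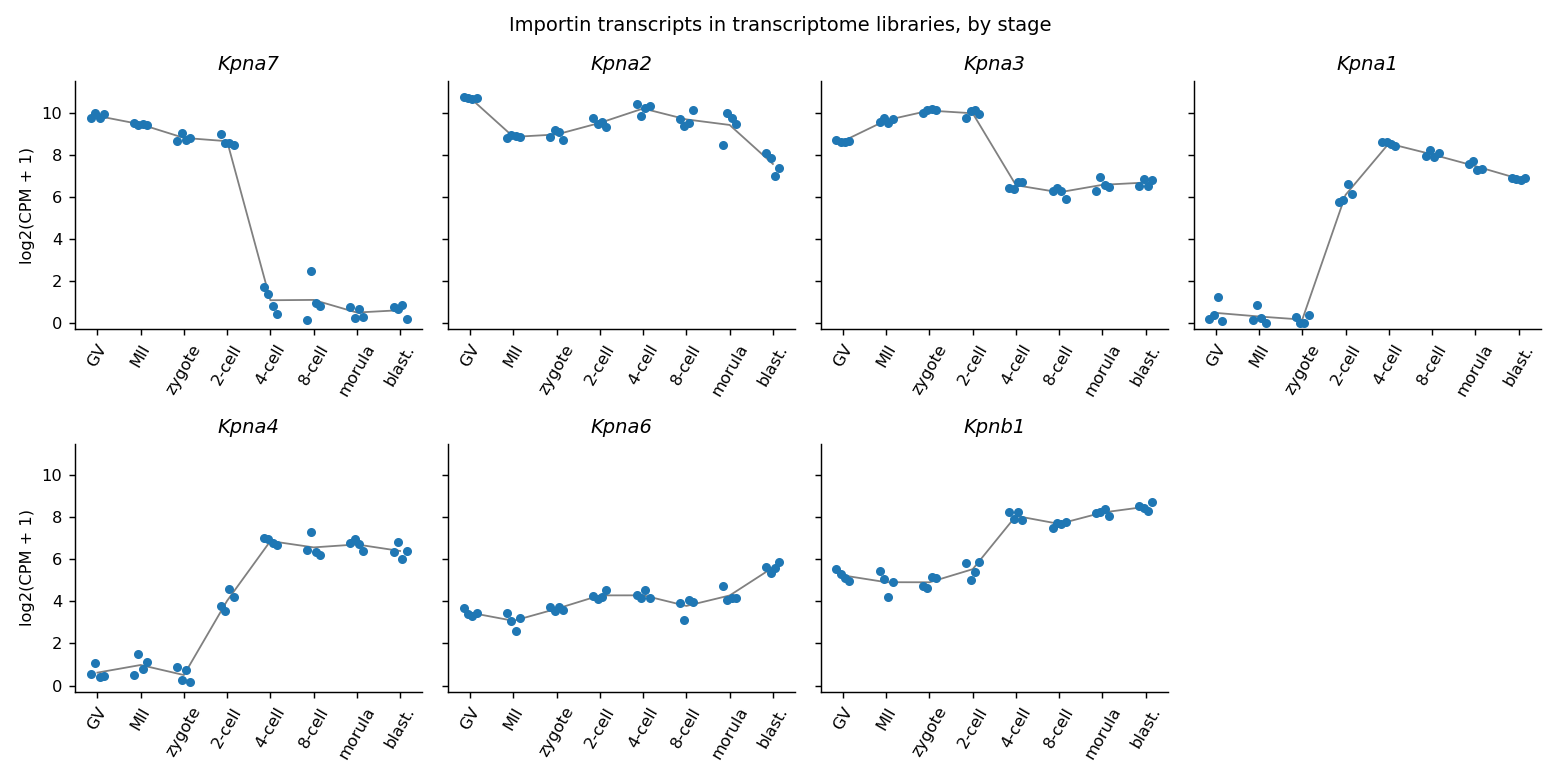
Transcriptome level of each of the 7 genes as log2(CPM + 1) by stage; points are single libraries (4 per stage) and the line joins stage means. Kpna7 and Kpna3 drop between the 2-cell and 4-cell stage, where Kpna1, Kpna4 and Kpnb1 rise.

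In all, 10 of the 49 transcriptome tests of these genes were calls. From 2-cell to 4-cell, 5 of the 7 genes were called, 3 higher and 2 lower, beside 64.8% of all genes tested at this step. From GV to MII 1 of 7 was called (34.5% of all genes), from zygote to 2-cell 2 of 7 (33.9%) and from morula to blastocyst 2 of 7 (26.8%). No member was called from MII to zygote, 4-cell to 8-cell or 8-cell to morula, where 10.3%, 2.60% and 11.9% of all genes were. The members' counts were not tested against those of all genes. The median change of the 7 genes from 2-cell to 4-cell was 0.68, beside 0.02 over all genes.

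Divided by exon length, the levels of the genes can be set beside each other within a library. The lengths were all annotated exons of each gene in GENCODE M21, from 2873 bases for Kpna2 to 8940 for Kpna4, so a gene read from a short isoform is understated. In GV oocytes Kpna2 made up 59.9% ± 1.7 (SD, n = 4) of the summed importin alpha CPM per kb, Kpna7 30.4% ± 2.0 and Kpna3 9.59% ± 0.35. In MII oocytes the same genes stood at 28.1% ± 1.1, 39.1% ± 1.8 and 32.6% ± 2.0, so that Kpna7 led. In zygotes Kpna3 led with 44.6% ± 2.9, and Kpna7 was at 24.8% ± 1.7. Kpna1, Kpna4 and Kpna6 were each at or below 0.302% in these 3 stages, the value of Kpna6 in zygotes.

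At the 4-cell stage Kpna2 made up 83.3% ± 2.7 of the sum, Kpna1 8.98% ± 1.75, Kpna3 4.42% ± 0.58 and Kpna7 0.081% ± 0.055. In blastocysts Kpna2 was at 54.6% ± 8.0, Kpna3 at 19.9% ± 4.0, Kpna1 at 11.4% ± 2.2, Kpna4 at 7.85% ± 1.27 and Kpna6 at 6.10% ± 1.66. Kpna7 was the only one of the 6 under 1% there.

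The ratio of summed importin alpha to Kpnb1, both as CPM per kb, had a lower mean at each successive stage. It was 175 ± 29 (SD, n = 4) in GV oocytes, 135 ± 51 in MII oocytes, 132 ± 30 in zygotes and 94.5 ± 27.9 in 2-cell embryos. At the 4-cell stage it was 12.2 ± 1.9, below the lowest 2-cell library at 65.5, and it was 11.3 ± 1.9 in 8-cell embryos and 6.87 ± 2.19 in morulae. Blastocysts were at 2.22 ± 0.42, with no overlap with morulae. From 2-cell to 4-cell Kpnb1 rose, while the summed importin alpha went from 629 to 493 CPM per kb. From morula to blastocyst that sum went from 312 to 122 CPM per kb. These ratios are given as descriptions with no test.

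**Figure D2:**
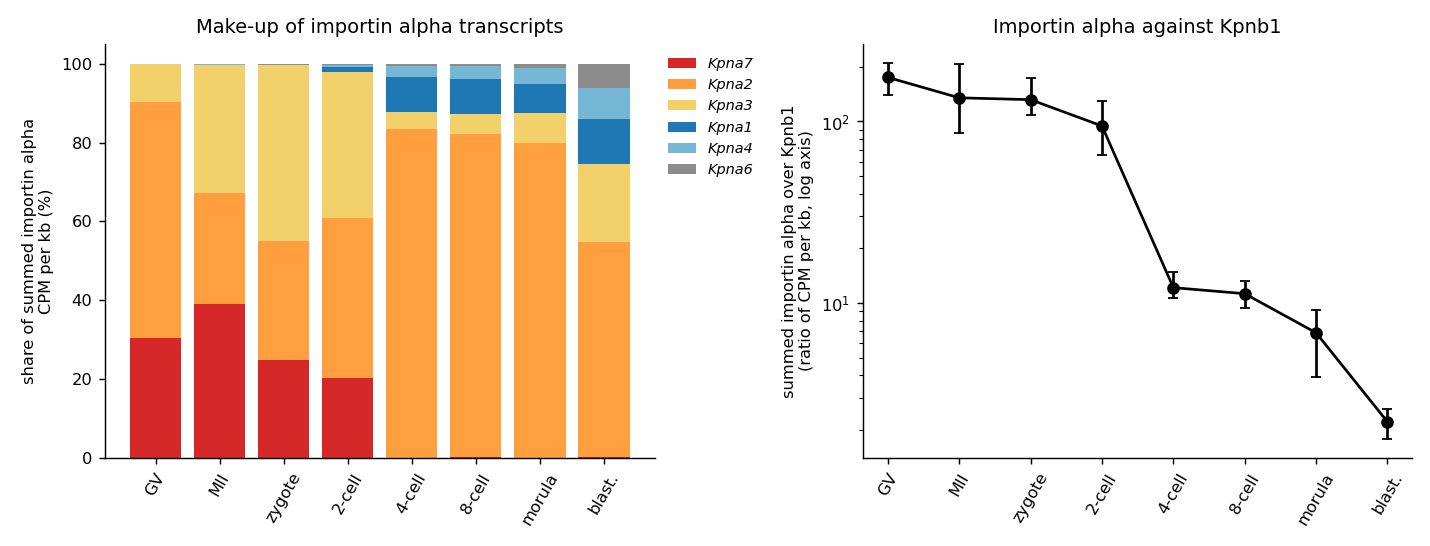
Left, share of each importin alpha gene in the summed CPM per kb, mean of 4 transcriptome libraries per stage; right, ratio of that sum to Kpnb1 on a log axis, points are means and bars run from the lowest to the highest library. Kpna7 disappears from the sum at the 4-cell stage and the mean ratio goes from 175 to 2.22.

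Over the 8 stage means of transcriptome log2(CPM + 1), Kpna7 and Kpnb1 had opposite profiles, with a Pearson r of -0.986, while Kpna1 and Kpna4 were alike, with r = 0.98. Kpna3 correlated with Kpna7 at r = 0.94, and Kpna4 with Kpnb1 at r = 0.95. These are descriptions over 8 points that share the step between the 2-cell and 4-cell stage. Among 14296 other genes, the most like Kpna7 were Prr5l, Slc24a2 and Cmya5 (r = 0.999 for each), and 1563 genes exceeded r = 0.95 with it. For Kpnb1 these were Vps33a, Uck1 and Ccdc51 with 1384 genes over that value, for Kpna3 Uba3, Ntm and Naa30 with 1010, for Kpna4 Syap1, Set and Cd63-ps with 888, and for Kpna1 Stac2, Bag5 and Mak16 with 587. Kpna6 was nearest to Sod2, Nisch and Tmem141, with 44 genes. The profile of Kpna2 was shared by few genes: 5 exceeded r = 0.95, led by Pin1rt1 at r = 0.986, Med4 at 0.962 and Fdft1 at 0.955.

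On the gradients, Kpna3 lay on the heavy side and Kpna7 on the light side before the 4-cell stage. Kpna3 had a higher mean CPM in the heavy than in the light fractions in 12 of 12 gradients from GV oocyte to 2-cell embryo, and Kpna7 a lower one in 11 of 12. CPM is relative to the library, so these means weigh fractions equally whatever RNA they held. Neither gene passed the test at a single one of these stages, where the fit shares 1 estimate of the spread over all 8 stages. The direction over gradients is a count without a test.

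In gradients A, B and C of 2-cell embryos, Kpna3 was at 102, 76.1 and 194 CPM in the light and at 456, 675 and 510.4 CPM in the heavy fractions. The sides did not overlap, and the difference was 2.22 ± 0.83 (limma adjusted p = 0.058). It passed with quantile normalization (limma adjusted p = 0.0147), without fraction 1 (0.0245) and in a fit of the 2-cell gradients alone (0.0418). In that order, 18.2%, 16.7% and 1.90% of all genes were called there, against 18.2% in the main fit. Zygotes held 47.4, 25.6 and 44.1 CPM light and 229.4, 99.5 and 259 CPM heavy, again without overlap. The difference was 2.23 ± 0.83 (limma adjusted p = 0.16, and 0.00329 in a fit of the zygote gradients alone). That fit called 18.5% of all genes, against 3.01% in the main fit. GV oocytes had 48.7, 73.0 and 45.5 CPM light and 102, 142 and 111 CPM heavy, also without overlap. Fraction 1 of GV gradients A and B held only 0.0102 and 0.0231 M reads, where 1 read counts as 95.5 and 42.2 CPM. The highest Kpna3 value of GV gradient B, 253 CPM, came from that fraction. In MII oocytes the sides overlapped, at 100.8, 39.0 and 32.2 CPM light and 156, 91.6 and 97.4 CPM heavy.

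Kpna7 in MII oocytes was at 741, 689 and 730.4 CPM in the light and at 302, 371 and 525 CPM in the heavy fractions, with no overlap between sides (-0.89 ± 0.97, limma adjusted p = 0.89). Fraction 3 held its highest value in each of the 3 MII gradients. In 2-cell embryos it was at 1082, 894 and 1635 CPM light and 186, 493 and 442 CPM heavy, also without overlap (-1.76 ± 0.97, limma adjusted p = 0.22). At the other 2 stages the sides overlapped. GV oocytes held 456, 933 and 607 CPM light and 410.1, 701 and 491 CPM heavy. Zygotes held 593, 455 and 374 CPM light and 359, 287 and 376 CPM heavy.

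Kpnb1 lay on the heavy side in oocytes. In GV oocytes it was at 7.81, 6.47 and 7.41 CPM light and 37.5, 24.9 and 27.5 CPM heavy, and in MII oocytes at 3.89, 5.03 and 1.87 CPM light and 20.6, 14.6 and 5.30 CPM heavy. Both stages were without overlap, and neither difference was called (GV 1.89 ± 0.78, limma adjusted p = 0.72; MII 1.55 ± 0.78, limma adjusted p = 0.41). In a fit of the GV gradients alone the GV difference was called, with a limma adjusted p of 0.042. That fit called 2.45% of all genes, against 0.0725% in the main fit. The light values of GV gradients A and B include the shallow fraction 1 described above.

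Of the 56 tests of heavy against light, 4 were calls. They were Kpna4 at the 2-cell stage, Kpna2 and Kpna7 at the 4-cell stage and Kpna7 at the 8-cell stage, each lower in the heavy fractions. At these stages 18.2%, 16.3% and 9.05% of all genes were called. No member was called in GV oocytes, MII oocytes, zygotes, morulae or blastocysts, where 0.0725%, 3.23%, 3.01%, 5.81% and 2.74% of all genes were. The members' shares were not tested against these.

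**Figure D3:**
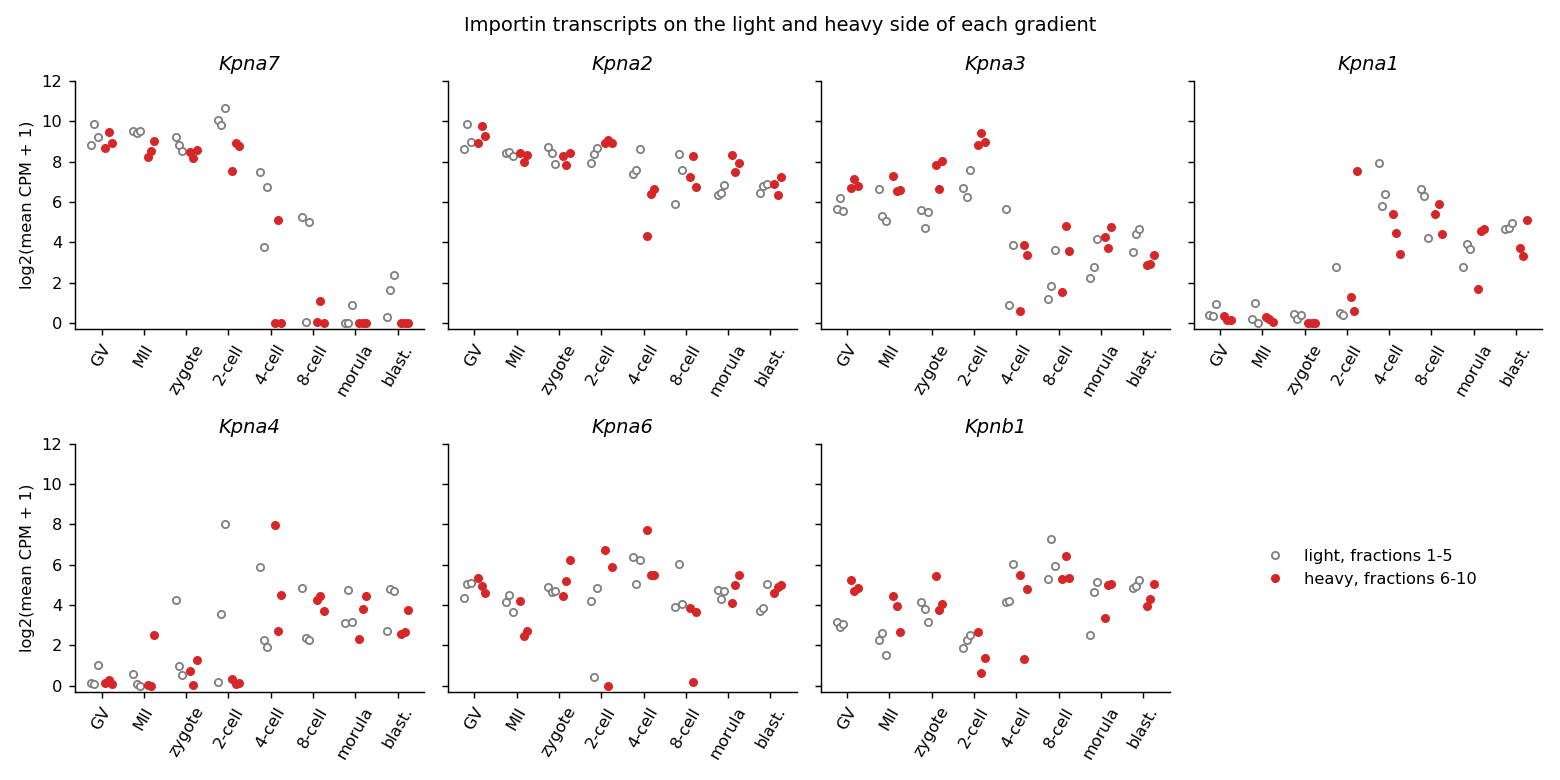
Mean level in the light (open grey) and heavy (red) fractions as log2(mean CPM + 1) for each of 3 gradients per stage. Kpna3 is higher on the heavy side in all gradients up to the 2-cell stage, Kpna7 is lower there in 11 of 12, and Kpna2 drops on the heavy side at the 4-cell stage.

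Kpna2 fell in the heavy fractions at the 4-cell stage, where its transcriptome mean was the highest of the embryo stages. Its heavy means in gradients A, B and C were 494, 539.8 and 493 CPM in 2-cell embryos, 18.9, 82.8 and 98.8 CPM in 4-cell embryos, and 153, 308 and 107 CPM in 8-cell embryos. Every 4-cell value lay below every 2-cell and every 8-cell value. The heavy change from 2-cell to 4-cell was -3.21 ± 0.49 (limma adjusted p = 2.2e-05), against 0.68 ± 0.22 in the transcriptome. The difference between both, tested as an interaction, was -3.89 ± 0.49 (limma adjusted p = 3.3e-08), and it was called under each of the 20 alternatives run, between -4.32 and -3.10. Interaction fits share 1 estimate of the spread between transcriptome libraries and gradients. Where gradients vary more, this can make standard errors and p-values too small, and the alternatives share this limit.

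The light side of Kpna2 was at 242, 333 and 412 CPM in 2-cell and 169, 189 and 395 CPM in 4-cell embryos, so the ranges overlapped there. Within the 4-cell stage the heavy side differed from the light side by -2.09 ± 0.49 (limma adjusted p = 0.0023), in 3 of 3 gradients. The change of the heavy-light difference from 2-cell to 4-cell was -2.75 ± 0.69 (limma adjusted p = 0.0066). Among the alternatives run, both were lost only where the limma fit held just the stages compared (adjusted p = 0.288 and 0.248). Those fits called 0 of 8575 and 0 of 12290 genes, against 16.3% and 11.7% in the main fit. From 4-cell to 8-cell the heavy fractions rose beyond the transcriptome by 2.17 ± 0.49 (limma adjusted p = 0.0017). This call was lost only in the fit of just these stages (limma adjusted p = 0.142). That fit called 3.12% of all genes, against 13.7% in the main fit. Without 4-cell gradient A the interaction was 1.43, still called. The heavy change alone, 1.65 ± 0.49 (limma adjusted p = 0.049), was lost under 8 of 13 alternatives, at 0.91 without 4-cell gradient A, 1.73 without 8-cell gradient A and 1.23 without 8-cell gradient B. The heavy-light difference changed by 2.22 ± 0.69 at this step (limma adjusted p = 0.0742, and 0.0245 with the gradient as a block).

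Single fractions showed the same order for Kpna2. Its highest fraction was fraction 10 in each of the 3 2-cell gradients, at 1609, 1238 and 1460 CPM. It was fraction 4 in each of the 3 4-cell gradients, at 658, 846 and 871 CPM, where fraction 10 held 86.8, 409 and 1.89 CPM. In the 3 morula gradients it was again fraction 10, at 675, 438 and 739 CPM. Morula means were 80.7, 87.1 and 115 CPM light and 325, 178 and 246 CPM heavy, with no overlap. That difference of 1.37 ± 0.49 missed the threshold (limma adjusted p = 0.099) and passed it with the gradient as a block (limma adjusted p = 0.0285). The heavy 4-cell libraries held 0.996 to 21.6 M reads each, and the Kpna2 reads in the heavy fractions were 674, 4848 and 8025 in gradients A, B and C. At this stage 4.36% of the cases described above had 0 reads, and their part in the low heavy values was not tested. The values without 4-cell gradient A were -1.58 for heavy against light and -2.24 for its change from the 2-cell stage, both still called.

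**Figure D4:**
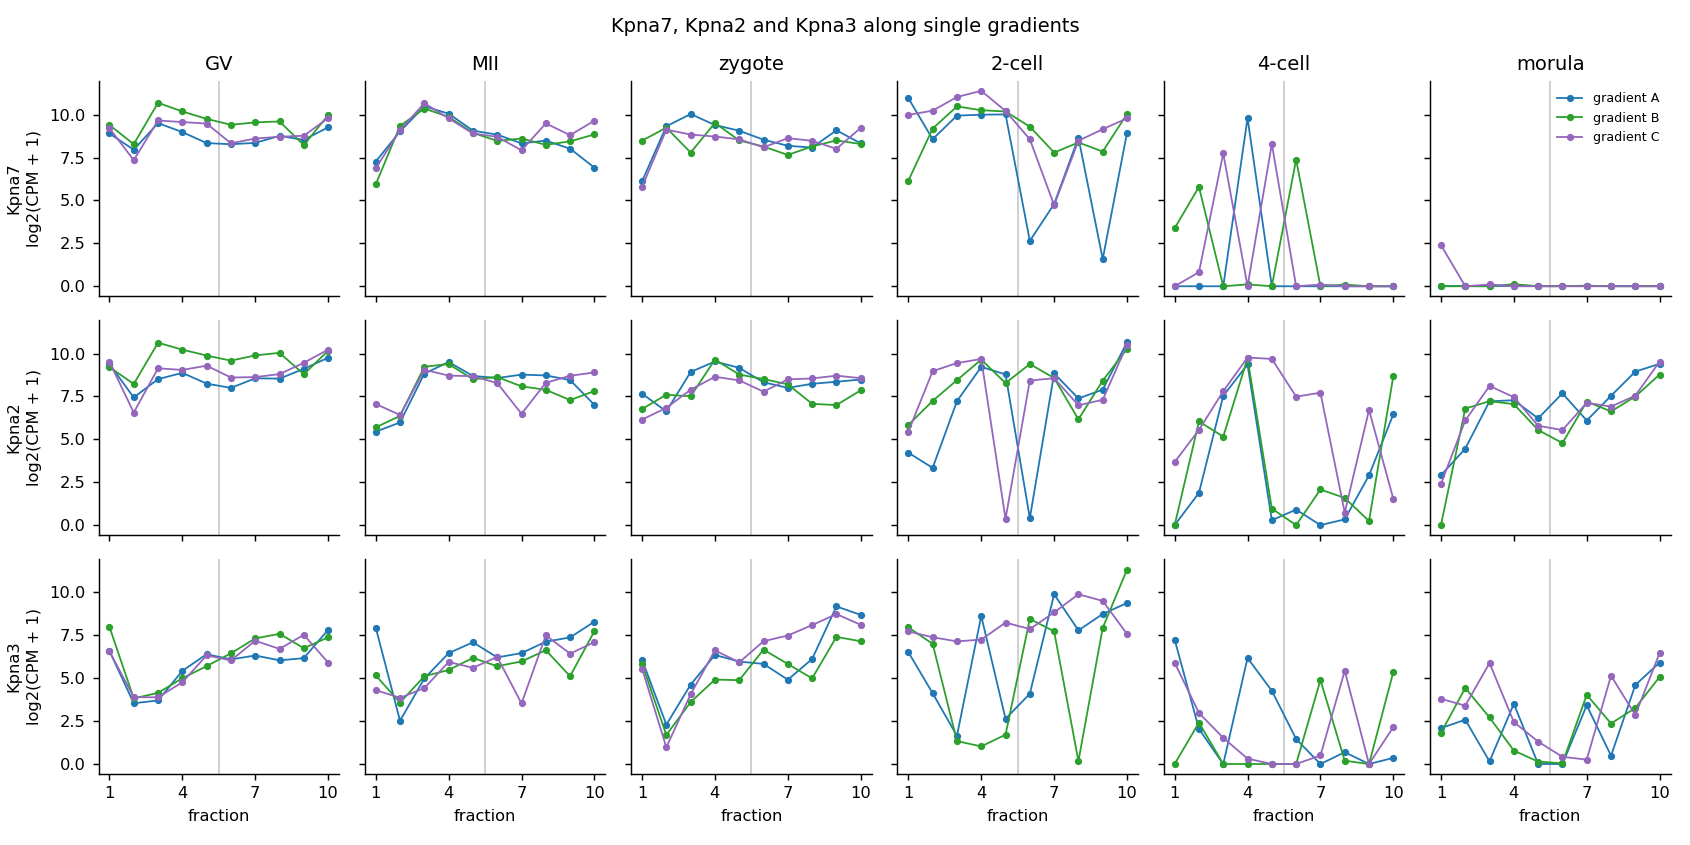
log2(CPM + 1) of Kpna7, Kpna2 and Kpna3 in fractions 1 to 10 of single gradients (colours) at 6 stages; the vertical line divides light from heavy. Kpna2 peaks in fraction 10 at the 2-cell and morula stage and in fraction 4 at the 4-cell stage.

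Kpna3 fell further in the heavy fractions than in the transcriptome from 2-cell to 4-cell. Its 4-cell values were 0.527, 13.8 and 9.20 CPM heavy and 48.8, 0.864 and 13.6 CPM light. They rested on 11, 766 and 439 heavy reads and 676, 15 and 57 light reads in gradients A, B and C. The light side thus fell as well, from 102, 76.1 and 194 CPM in 2-cell embryos, without overlap. Unlike that of Kpna2, the change of its heavy-light difference was not called. The heavy change was -6.46 ± 0.77 (limma adjusted p = 8.6e-07) against -3.42 ± 0.13 in the transcriptome, and the interaction of -3.04 ± 0.65 (limma adjusted p = 0.00027) was called under each of 20 alternatives, between -3.68 and -1.62. The standard error of this interaction lay below that of the heavy change alone, because its fit shares the spread of the tighter transcriptomes. Its p-value is thus likely too small. From zygote to 2-cell the interaction was 1.70 ± 0.65 (limma adjusted p = 0.043), in the other direction, and was lost under 13 of 20 alternatives. It was lost without any 1 of the 8 transcriptome libraries, and at 1.54 without 2-cell gradient B, 1.74 without 2-cell gradient C and 1.27 without zygote gradient B.

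Kpna7 fell in the heavy fractions by 6.72 ± 0.90 on the log2 scale from 2-cell to 4-cell (limma adjusted p = 3.9e-06), and the interaction of 0.84 ± 0.83 was not called. In 4-cell embryos its light fractions still held 178, 12.8 and 105 CPM, above all 4 transcriptome libraries of that stage, of which the highest had 2.22 CPM. These values came from few fractions: in gradient A only fraction 4 had reads, at 890.0 CPM, and 5 and 4 of 10 fractions had reads in gradients B and C. The heavy fractions were at 0, 33.2 and 0.0137 CPM. The call of heavy against light at this stage, -4.30 ± 0.97 (limma adjusted p = 0.0017), was -2.70 without gradient A and -3.09 without gradient C and was lost in both cases, while it was -7.10 without gradient B. At the 8-cell stage the call of -3.05 ± 0.97 (limma adjusted p = 0.038) was likewise lost without gradient A (-1.96) or C (-2.08), was -5.12 without gradient B, and had a limma adjusted p of 0.104 with the gradient as a block.

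Kpna4 rose in the transcriptome of 2-cell embryos while it stayed near 0 in their heavy fractions. The heavy means were 0.263, 0.0576 and 0.114 CPM in gradients A, B and C, against 10.8 to 22.8 CPM in the transcriptomes. The light means were 0.137, 10.8 and 256 CPM, and fraction 1 held 93.5% of the summed CPM of gradient C. The interaction from zygote to 2-cell was -4.03 ± 0.86 (limma adjusted p = 0.00037), below the median of -0.89 over all genes. It was called under each of 20 alternatives, the nearest to 0 being -2.196 with quantile normalization. At the 4-cell stage the heavy means were 246, 5.54 and 21.8 CPM, above every 2-cell gradient, and the heavy change was 4.86 ± 0.94 (limma adjusted p = 0.00029).

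The position of Kpna4 at the 2-cell stage rested on fraction 1. The difference of heavy against light was -3.73 ± 1.24 (limma adjusted p = 0.03) with all fractions and -1.37 (limma adjusted p = 0.472) with fractions 2 to 5 as the light side. It was not called without gradient B (-3.85) or C (-1.67), and was -5.67 without gradient A. Fraction 1 of the 2-cell gradients held 0.337 to 0.667 M reads. The change of this difference to the 4-cell stage, 5.41 ± 1.75 (limma adjusted p = 0.037), was not called with fractions 2 to 5 (3.38) or without 2-cell gradient B (5.53), 2-cell gradient C (3.35) or 4-cell gradient C (4.96).

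Kpna1 in 2-cell gradients was at 1.42, 0.503 and 182 CPM heavy and 5.92, 0.401 and 0.322 CPM light, so 1 gradient was far above the others. In gradient C, fraction 8 held 637 CPM and fraction 10 held 273.7 CPM, while fractions 6, 7 and 9 had 0 reads. In zygotes the heavy fractions of Kpna1 held 1, 0 and 1 reads in gradients A, B and C, and the transcriptomes 0 to 5 reads. At such values the added 1 CPM sets the size of a change. The interaction from zygote to 2-cell, -2.81 ± 1.07 (limma adjusted p = 0.044), became 4.34 with edgeR on recovered reads and was -1.88 without gradient A, -1.54 without gradient B and -5.01 without gradient C. It was lost under 16 of 20 alternatives, and edgeR gave the opposite sign. In 4-cell gradients Kpna1 was at 40.7, 21.4 and 9.67 CPM heavy and 240.1, 55.8 and 82.7 CPM light, lower on the heavy side in 3 of 3 gradients (-2.28 ± 1.00, limma adjusted p = 0.12). The change of the heavy-light difference from 2-cell to 4-cell, -4.18 ± 1.42 (limma adjusted p = 0.048), was not called without 2-cell gradient C (-1.57), 4-cell gradient A (-4.06) or 4-cell gradient C (-3.83).

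Kpnb1 dropped in the heavy fractions from zygote to 2-cell while its transcriptome change was 0.62 ± 0.19 (limma adjusted p = 0.0056). Its heavy means were 42.2, 12.7 and 15.5 CPM in zygotes and 5.44, 0.559 and 1.603 CPM in 2-cell embryos, with no overlap. The 2-cell heavy means rested on 290, 21 and 131 reads. Its light means fell as well, from 16.6, 13.1 and 7.91 CPM to 2.62, 3.77 and 4.64 CPM, also without overlap. The change of its heavy-light difference was not called at this step. The heavy change of -2.85 ± 0.88 (limma adjusted p = 0.025) compares with a median of -0.51 over all genes. It was lost under 6 of 13 alternatives, among them quantile normalization at -1.48 and the fits without 2-cell gradient B (-2.38), 2-cell gradient C (-2.75) or zygote gradient A (-2.34). The interaction of -3.47 ± 0.77 (limma adjusted p = 0.00055) compares with a median of -0.89 and was lost only with quantile normalization, at -1.72 (limma adjusted p = 0.0518). From 2-cell to 4-cell the heavy fractions rose by 2.30 ± 0.88 (limma adjusted p = 0.045), to 43.8, 1.48 and 27.1 CPM. That call was lost without any 1 of 4 gradients, at 1.49, 1.83, 1.84 and 2.21 without 4-cell A, 4-cell C, 2-cell B and 2-cell C.

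Kpna6 varied too much between 2- to 8-cell gradients for a position to be read. In 2-cell gradients its heavy means were 104, 0 and 57.4 CPM, and in 4-cell gradients 207, 44.5 and 43.4 CPM. In 8-cell gradients they were 13.3, 0.132 and 11.7 CPM. Its only gradient call, an interaction of -3.16 ± 1.11 from 4-cell to 8-cell (limma adjusted p = 0.047), was lost under 13 of 21 alternatives, at -1.97 without 8-cell gradient B and -2.43 without 4-cell gradient A. The same step for Kpnb1, 2.21 ± 0.77 (limma adjusted p = 0.046), was lost under 16 of 21, at 0.93 without 4-cell gradient B, 1.83 without 8-cell gradient B and 0.43 with edgeR.

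Among the 49 tests of the heavy fractions 7 were calls: 5 from 2-cell to 4-cell (37.8% of all genes), 1 from zygote to 2-cell (20.8%) and 1 from 4-cell to 8-cell (6.54%). No member was called at the other 4 steps, from GV to MII, MII to zygote, 8-cell to morula and morula to blastocyst, where 4.06%, 1.49%, 7.98% and 0.0757% of all genes were. Of the 49 interaction tests 9 were calls, with 4 from zygote to 2-cell (27.5% of all genes), 2 from 2-cell to 4-cell (31.8%) and 3 from 4-cell to 8-cell (13.7%). The other 4 steps, in the same order as above, gave no call among members and 8.22%, 2.28%, 6.45% and 2.20% among all genes. The change of the heavy-light difference was called for 3 members from 2-cell to 4-cell (11.7% of all genes). At the other 6 steps, in stage order, no member was called, beside 0.185%, 0.0198%, 4.65%, 2.47%, 0.534% and 0.0198% of all genes. The members' counts were not tested against those of all genes.

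**Figure D5:**
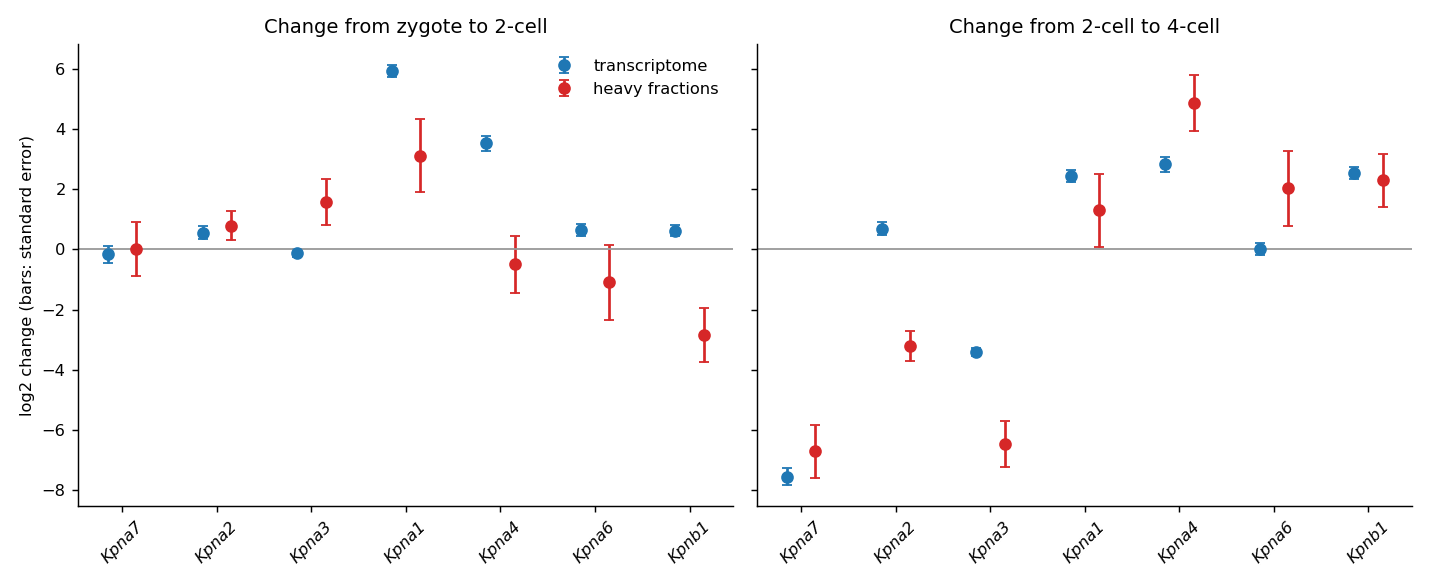
log2 change of each gene in the transcriptome (blue, 4 libraries per stage) and in the heavy fractions (red, 3 gradients per stage) from zygote to 2-cell (left) and from 2-cell to 4-cell (right); bars are standard errors of the limma fit. For Kpna2 the changes from 2-cell to 4-cell lie on opposite sides of 0.

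Other genes of the pathway are given by 2 lists, neither of which was tested against all genes. Of 16 other receptors of the importin beta family, 11 rose and 2 fell in the transcriptome from 2-cell to 4-cell, with a median change of 1.96. Xpot, the exporter of tRNA, rose by 4.54 ± 0.17 (limma adjusted p = 2e-23), and Ipo5 and Ipo7, import receptors for ribosomal proteins among other cargo, rose by 4.49 ± 0.16 and 4.02 ± 0.19. Ipo8 and Tnpo1, named after their values were seen, fell, with changes of -3.30 ± 0.15 and -1.61 ± 0.17. Ipo8 went from 222 to 22.0 CPM. Of 9 measured genes of the Ran cycle and of importin alpha release (10 on the list), 7 rose and none fell, with a median change of 2.73. The largest changes were those of Ranbp1 at 3.67 ± 0.14, Rangap1, which activates hydrolysis of GTP by Ran, at 3.60 ± 0.22, and Ranbp2, a nucleoporin, at 3.003 ± 0.18. Ran itself was at 2.73 ± 0.11, and Cse1l, which returns importin alpha to the cytoplasm, at 1.78 ± 0.17 (both named after their values were seen). At this step 64.8% of all genes were called.

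From zygote to 2-cell, 7 of the 16 receptors and 2 of the 9 Ran cycle genes rose in the transcriptome and none fell, beside 33.9% of all genes called, of which 74.3% were higher. The interaction from 2-cell to 4-cell was called lower for 8 of 16 receptors and higher for Ipo8 alone, with a median of -1.75, and lower for 5 of 9 Ran cycle genes, with a median of -1.32. Over all genes 31.8% were called at this step, 43.5% of them higher, and the median was -0.16. Among the receptors, Ipo9, Xpo4 and Xpo5 had the largest changes, and Ipo9 was at -4.49 ± 0.58 (limma adjusted p = 6.2e-08). Among the Ran cycle genes these were Nup50, a nucleoporin that helps to release cargo from importin alpha, at -4.60 ± 0.80 (limma adjusted p = 1.5e-05), Cse1l at -3.23 ± 1.08 (limma adjusted p = 0.018) and Ranbp2 at -3.18. Kpna2 had -3.89 ± 0.49 at the same step.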

How the data were processed

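The deposited table holds CPM per gene symbol, which the authors made from Smart-seq2 libraries, 32 of transcriptomes and 240 of gradient fractions. Per the submitters' processing notes, the tools were Trim Galore 0.6.7, FastQC, HISAT2 2.2.1, featureCounts 2.0.1 and edgeR with the build GRCm39; how reads that match several genes were counted is not given in the sources used here. In 9 deposited columns repeated symbols pushed the sum beyond that of CPM, so they were recorded as signal and used as the authors' CPM. Symbols with identical values (159 in 76 groups) were reduced to 1 each, which left 15771 of 15854. All 272 columns were matched to a sample; those of the 2-cell transcriptomes carry letters E to H that the labels do not, and entered without a letter. Each library's CPM steps gave whole reads for 100% of values within 0.05 reads, and depth comes from these.

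Values were log2(CPM + 1), with genes kept at 1 CPM; heavy and light values are the means of fractions 6 to 10 and 1 to 5. limma 3.58.1 (R 4.3.3, Python 3.11.15) was fitted to all stages together, with p-values adjusted by Benjamini-Hochberg over all genes in each comparison. The fit was also run on simulated reads with the same dispersion for every gene and library. Gradients that differ as widely as those here were not simulated, so that run does not speak to them. The interaction compares the heavy change with the transcriptome change. Its fit holds 1 spread per gene for both kinds of library, so its p-values are too small where gradients vary more. Interaction calls near the threshold are therefore uncertain. edgeR 4.0.16 on the recovered reads (271 libraries) was an alternative and called 577 to 10232 genes per transcriptome step. Other alternatives were a pseudocount of 0.1, no filter, quantile normalization, fits of only the groups compared, heavy fractions 7 to 10 with light fractions 1 to 4, each replicate left out and a replicate block. Light fractions 2 to 5 were added after seeing the data.

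Libraries of a stage differed by more than sampling noise (chi-square per degree of freedom at least 2.55). No label says that they came from separate collections, so p-values then measure only the spread between these samples, which may be technical. Heavy and light values of 1 gradient share a lysate and are paired by it (r of their deviations 0.0078 to 0.253 over 24 pairs). The members, the pathway lists and the markers were chosen with earlier results of these data known. Named were all members, up to 3 called genes with the largest change per list and step, and the 3 genes most like each member. Counting floors and read numbers cover counting error only.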

Additional observations from a re-analysis of the deposited data

Results flagged for a closer look

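In 4 of 56 groups of 4 transcriptome libraries, 1 library stood far above the other 3; chance alone does this in about 1 of 20 groups. They were Kpna1 in GV oocytes at 1.36 CPM, Kpna4 in 8-cell embryos at 158.6 CPM, Kpna6 in morulae at 25.4 CPM and Kpna7 in 2-cell embryos at 507 CPM.

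The difference between heavy and light fractions was not the same at the 2-cell and 4-cell stage for 3 genes by a test of that change. It changed by -4.18 for Kpna1, by -2.75 for Kpna2 and by 5.41 for Kpna4 on the log2 scale. The first and the last were not called when 2-cell gradient C was left out (-1.57 and 3.35), while that of Kpna2 was called with each of the 6 gradients left out in turn. None of the 3 was called in a limma fit of only the 2-cell and 4-cell gradients, where 0 of all genes were called.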

How the results depend on the processing

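All 10 transcriptome calls of the members kept direction and threshold under the 13 or 14 alternatives run for each. The interaction of Kpna1 from zygote to 2-cell, -2.81, was 4.34 with edgeR; the cause was not tested. The 3 calls on the change of the heavy-light difference became 0 in fits of only the groups compared with limma (where 0 to 123 of all genes were called), 5 with heavy fractions 7 to 10 and light fractions 1 to 4, and 1 with light fractions 2 to 5. The 9 interaction calls became 5 with quantile normalization and 5 with heavy fractions 7 to 10. Leaving out 1 replicate gave 10 to 11 transcriptome calls, 5 to 9 heavy-fraction calls, 3 to 6 of heavy against light, 1 to 8 of its change and 5 to 11 interactions. The causes were not tested.

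With the gradient as a replicate block there were 4 calls of heavy against light and 4 of its change. Letters did not pair transcriptomes (r -0.18 to 0.17) or heavy fractions of different stages (-0.061 to 0.091). A replicate block by letter gave 3, 6 and 2 calls for transcriptome, heavy fractions and interaction, the first and last over the 5 and 5 steps without 2-cell embryos. Over those steps the main transcriptome fit called 1 from GV to MII and 2 from morula to blastocyst. The main interaction fit called 3, all from 4-cell to 8-cell, and the main heavy-fraction fit called 7 over all steps.

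Over all genes, calls per comparison ranged from 147 to 9163, 0 to 2588, 0 to 2416, 0 to 123 and 380 to 3336 in fits of only the groups compared, for transcriptome, heavy fractions, heavy against light, its change and interaction. With edgeR these were 577 to 10232, 6 to 5997, 8 to 2625, 0 to 2490 and 243 to 5185. Quantile normalization moved the median interaction of all genes from zygote to 2-cell by 0.93 and the share of higher calls from 5.72% to 50.8%; for the transcriptome at this step the median moved by -0.45 and the share from 74.3% to 46.4%. Depth limits low values most in fraction 1, which held 0.141 to 0.667 M reads in 2- to 8-cell gradients. In GV gradients A and B it held 0.0102 and 0.0231 M reads.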
